A study of Mus musculus with 12 samples.

Results

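The genes described here are the 4 myogenic regulatory factors (Myod1, Myf5, Myog and Myf6) and 6 genes whose proteins restrain them: the MyoD family inhibitors Mdfi and Mdfic and the Id proteins Id1, Id2, Id3 and Id4. They are 10 of the 24421 entries of the count table, found by gene symbol, and each symbol occurs once. The set was chosen from gene family knowledge with the fold changes of the same comparison between WT and mdx/mTR already known, so the differences between the groups are descriptions of these libraries and lend no independent support to a direction. Messenger RNA of the tibialis anterior, a fast hindlimb muscle, was sequenced in 6 WT libraries (C57Bl/6 mice) and 6 mdx/mTR libraries, all from males at 4 months of age. In mdx mice the dystrophin gene Dmd is mutated, and mTR is the mouse telomerase RNA. The strain of the second group is given only as mdx/mTR, and the labels name neither its genetic background nor the generation of mice without telomerase RNA. They do not state that each library is a separate mouse, so p-values measure the spread between these libraries.

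Myogenic regulatory factors are basic helix-loop-helix proteins that bind E-boxes, the DNA motif CANNTG, as dimers with E proteins such as Tcf3, Tcf4 and Tcf12. Myod1 and Myf5 commit cells to the muscle lineage and are made by activated satellite cells, the stem cells of muscle. Myog drives the differentiation of myoblasts, and Myf6 (also called Mrf4) is the member made most by mature fibres. Id proteins have the helix-loop-helix but no basic region: they pair with E proteins and keep them from DNA, and their genes respond to bone morphogenetic proteins (BMPs). Mdfi, also called I-mfa, binds the myogenic factors and masks their nuclear localisation, and Mdfic is its paralog.

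The WT libraries held 36903560 to 40981012 counts and the mdx/mTR libraries 35136327 to 60330410. Levels are counts per 1000000 of library size (CPM), with library sizes adjusted by TMM scaling. A fold change is on the log2 scale, mdx/mTR relative to WT, from the edgeR quasi-likelihood fit of 13937 genes, with its standard error. The mean Dmd level was 237 ± 6.90 CPM (SD, n = 6) for WT against 46.8 ± 7.20 CPM (SD, n = 6) for mdx/mTR, which follows the labels. Terc, the gene of mTR, had 2 counts over the WT libraries and 0 over the mdx/mTR libraries, too few to check that label. The 6 markers of fast fibres (Acta1, Ckm, Myh4, Tnnt3, Actn3 and Pvalb) summed to between 132756 and 161556 CPM in the WT libraries and between 103053 and 143814 CPM in mdx/mTR. Of these 6, only Myh4 had an edgeR adjusted p below 0.05, with a mean of 66076 CPM for WT against 43138 CPM for mdx/mTR. Muscle also holds other cells, and in bulk RNA fewer cells of a type and less RNA per cell cannot be told apart.

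All 10 genes passed the filter on low counts, with at least 12 counts in each WT library, and all 10 had a positive fold change. The adjusted p (Benjamini-Hochberg over all genes) was below 0.05 for 7 of them, each higher in mdx/mTR: Myod1, Myf5, Myog, Myf6, Mdfi, Id2 and Id3. It was not for Mdfic, Id1 and Id4. Of all genes tested, 48.3% were called in either direction and 25.0% were called higher. The groups did not overlap, with every mdx/mTR library above every WT library, for Myod1, Myog, Mdfi and Id2, a state reached by 12.6% of all genes. The median fold change of the 10 genes was 0.44, against 0.01 over all genes. Since the genes were chosen with these values known, nothing is read from the counts. In the authors' deposited table, an adjusted p below 0.05 is listed for 7 of the 10, and all 7 are those called here.

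**Figure D1:**
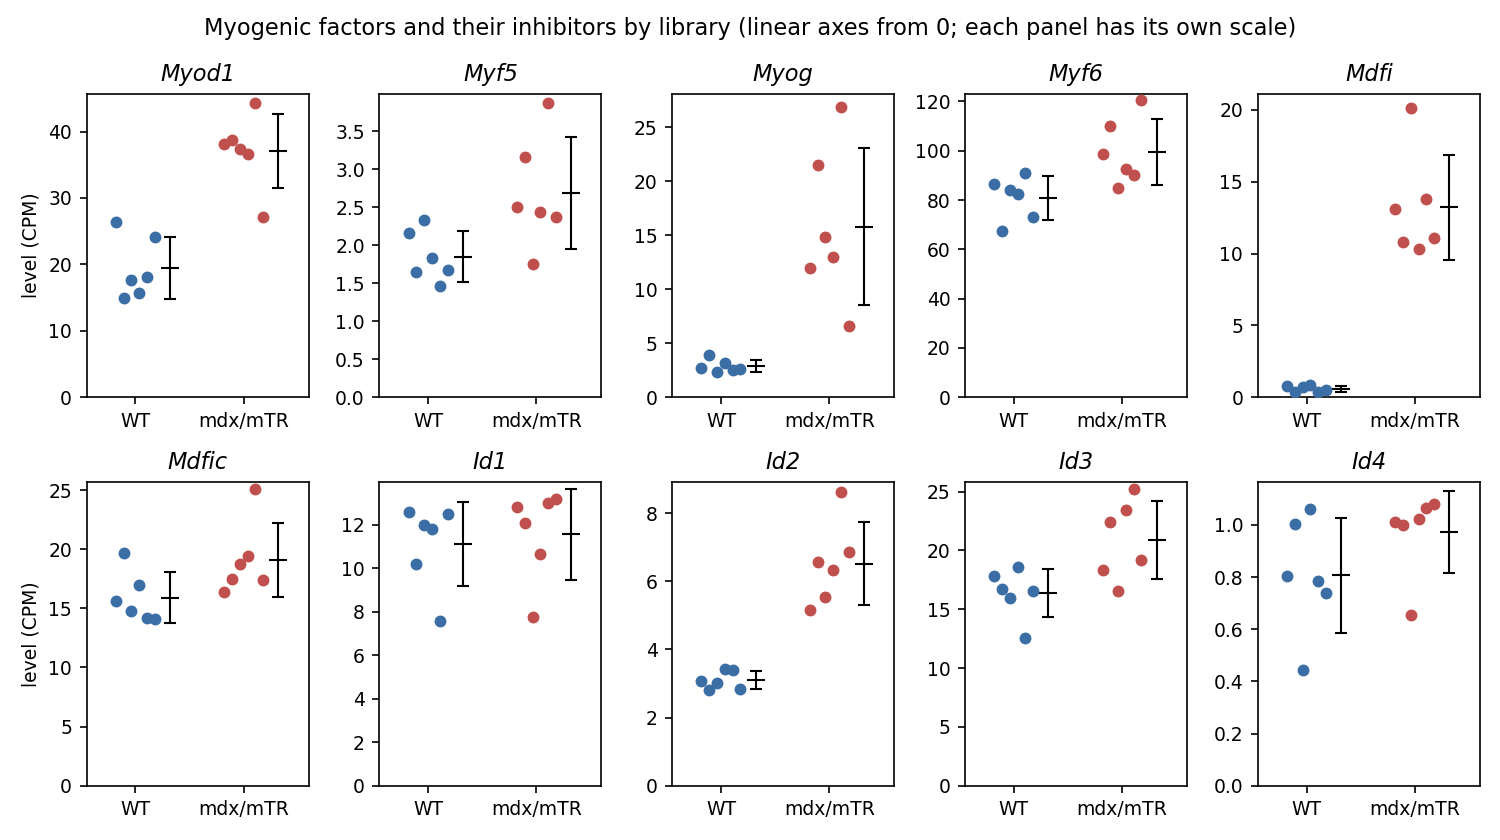
Level of each of the 10 genes in CPM (y axis, linear from 0, with its own scale in each panel) in 6 WT libraries (blue) and 6 mdx/mTR libraries (red). Points are libraries in order of replicate number, and the bar beside them is the mean ± SD. The groups are apart for Myod1, Myog, Mdfi and Id2 and overlap for the other genes.

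**Figure D2:**
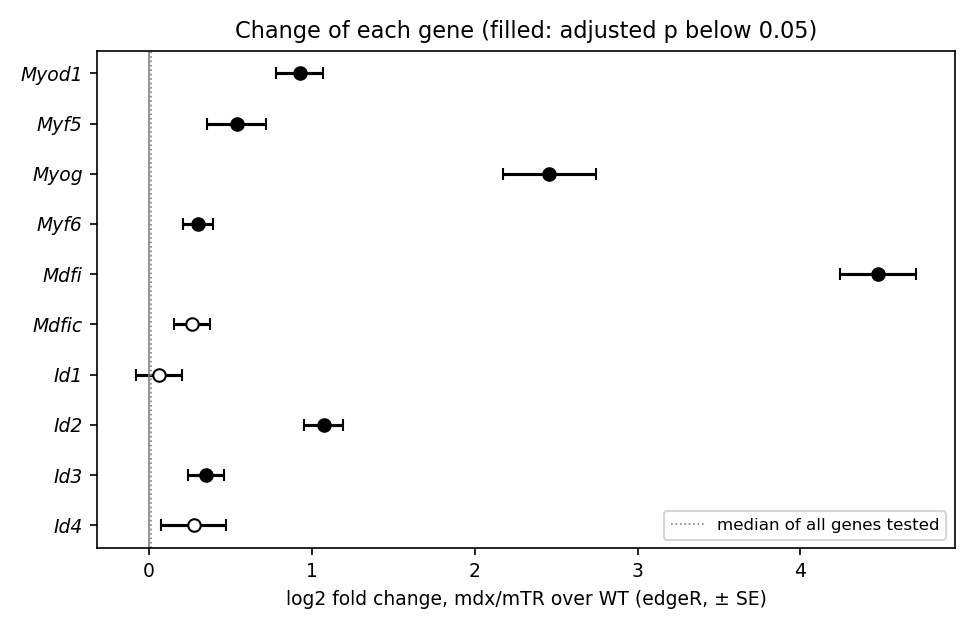
Log2 fold change, mdx/mTR relative to WT (x axis, edgeR, bars ± SE) for each gene (y axis). Filled points have an adjusted p below 0.05. Mdfi (4.48) and Myog (2.46) lie farthest to the right, and Id1 (0.06) lies nearest 0.

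Among the factors that commit cells to muscle, Myod1 (chromosome 7, 46376474 to 46379099, GRCm38) ranged from 15.0 to 26.3 CPM in WT, with a median of 17.8, and the mdx/mTR libraries ranged from 27.1 to 44.3 CPM, with a median of 37.8. The lowest mdx/mTR library, replicate 6, stood only just above the highest WT library, replicate 1. The fold change was 0.93 ± 0.14, from means of 19.5 ± 4.66 and 37.1 ± 5.57 CPM (SD, n = 6 each).

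Myf5 was the scarcest of the 4 factors per transcript length in both groups. It ranged from 1.46 to 2.33 CPM in WT (median 1.75) and from 1.75 to 3.88 CPM in mdx/mTR (median 2.47), and 5 of 6 mdx/mTR libraries lay above the highest WT library. Its fold change of 0.54 ± 0.18 was called in 15 of the 21 alternative fits. Without mdx/mTR replicate 5, the highest library, the fold change was 0.41 and the call was lost. The call was also lost without mdx/mTR replicate 2 (0.49), WT replicate 5 (0.48) or WT replicate 6 (0.51), with replicate numbers as a block (0.52), and without both WT replicate 2 and mdx/mTR replicate 5 (0.38).

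Markers of satellite cells, which can make Myod1 and Myf5, moved in both directions or were not called. The mean level of Pax7, which marks satellite cells, was 3.03 CPM for WT against 3.32 CPM for mdx/mTR, and Pax7 was not called. Of the 6 markers on the list (Pax7, Cdh15, Vcam1, Calcr, Chodl and Sdc4), 2 were higher and 1 was lower, and their sum ranged from 65.5 to 81.3 CPM in WT and from 70.5 to 91.4 CPM in mdx/mTR, with none at 0. The part of satellite cell number in the levels of Myod1 and Myf5 was not tested.

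Myog (chromosome 1, 134289989 to 134292548) had the largest change of the 4 factors. It ranged from 2.33 to 3.88 CPM in WT, with a median of 2.67, and from 6.56 to 26.9 CPM in mdx/mTR, with a median of 13.9. Every mdx/mTR library was above every WT library, but the mdx/mTR libraries spread widely, with replicate 6 lowest and replicates 2 and 5 highest. The mean rose from 2.87 ± 0.561 to 15.8 ± 7.28 CPM (SD, n = 6 each), a fold change of 2.46 ± 0.28. Over the fits that each left out 1 library, the fold change ran from 2.24 to 2.62.

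The coefficient of variation (SD as a percentage of the mean) of Myog was 46.1% in mdx/mTR, where 4.92% of all tested genes had a larger one. In WT it was 19.5%, where 22.97% of genes had a larger one. The median over all genes was 11.7% in mdx/mTR and 9.70% in WT. No test of the difference in spread was run.

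The sequences just upstream of Myog and Mdfi are shown because these 2 genes had the largest fold changes of the set and because E-boxes are the motif that the myogenic factors bind. Each is the 250 bases before the RefSeq transcription start (RefSeq, GRCm38.p6), 5′ to 3′ on the strand of the gene. Capitals mark E-boxes (CANNTG, which reads the same on both strands) and, in Myog, the A/T-rich core of a site for MEF2 factors (TA, 4 letters that are each A or T, then TA). No capitals from different motifs overlap. The Myog window is chr1:134289754-134290003 on the plus strand, and the Mdfi window is chr17:47834692-47834941 on the minus strand, before the first of 2 Mdfi starts in the table.
Myog: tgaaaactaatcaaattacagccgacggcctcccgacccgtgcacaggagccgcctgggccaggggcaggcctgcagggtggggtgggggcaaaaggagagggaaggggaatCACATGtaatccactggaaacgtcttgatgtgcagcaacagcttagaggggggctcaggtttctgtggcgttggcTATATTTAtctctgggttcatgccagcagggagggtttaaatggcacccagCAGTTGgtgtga
Mdfi: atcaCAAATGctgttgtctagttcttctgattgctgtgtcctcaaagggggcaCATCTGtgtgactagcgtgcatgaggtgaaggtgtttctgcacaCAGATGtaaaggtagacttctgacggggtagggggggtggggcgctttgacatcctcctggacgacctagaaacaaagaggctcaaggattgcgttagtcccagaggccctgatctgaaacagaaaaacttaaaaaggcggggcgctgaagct

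The Myog window held 2 E-boxes and 1 MEF2 core, and the Mdfi window held 3 E-boxes and no MEF2 core. GENCODE M21 places the start of Myog at 134289989, so the last bases of its window, with the E-box CAGTTG, lie inside that gene span. Of 32851 windows of the same length in the RefSeq table, 66.2% held at least 1 E-box, 31.8% at least 2 and 12.2% at least 3, and 8.56% held a MEF2 core on either strand. The table held 7 of the 10 genes (Myog, Myf5, Mdfi, Mdfic, Id2, Id3 and Id4). The windows of Mdfic and Id2 held 1 E-box each, and those of Myf5, Id3, Id4 and the second Mdfi start held none. A match is a description of the letters in the window and no evidence that a factor binds there.

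Myf6 (chromosome 10, 107492853 to 107494737), the factor of mature fibres, lies 6718 bases from Myf5 (107482908 to 107486134) on the same strand. It ranged from 67.6 to 90.98 CPM in WT (median 83.2) and from 84.8 to 120.6 CPM in mdx/mTR (median 95.6). The groups overlapped, with 4 of 6 mdx/mTR libraries above the highest WT library. The fold change was small, 0.30 ± 0.09, and Myf6 was called in all 21 alternative fits, with values from 0.24 to 0.46. The neighbours had unlike levels per length, with Myf5 at 0.889 ± 0.160 and Myf6 at 63.95 ± 6.94 CPM per kilobase of transcript in the WT libraries (SD, n = 6).

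Per transcript length the 4 factors can be set against each other. In WT, Myf6 made up 82.8% ± 2.81 of their summed CPM per kilobase, Myod1 13.5% ± 2.83, Myog 2.54% ± 0.766 and Myf5 1.15% ± 0.193 (SD, n = 6). In mdx/mTR the shares were 71.2% ± 6.69 for Myf6, 18.1% ± 3.04 for Myod1, 9.52% ± 4.02 for Myog and 1.16% ± 0.261 for Myf5. The groups overlapped for each of the 4 shares. The overlap came from mdx/mTR replicate 6 for Myf6, at 82.6%, while the other 5 mdx/mTR libraries had 62.0% to 72.4% and the WT libraries 78.8% to 85.6%. The summed level of the 4 factors did not overlap, at 65.0 to 85.6 CPM per kilobase in WT and 97.96 to 123.7 in mdx/mTR. These shares use the same values as the fold changes and are given without a test.

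The ratio of Myog to Myod1 on the same per-kilobase scale averaged 0.196 ± 0.0752 (SD, n = 6) for WT against 0.513 ± 0.177 (SD, n = 6) for mdx/mTR. It was highest in mdx/mTR replicate 5 (0.757) and replicate 2 (0.692). The lowest mdx/mTR ratio, 0.301 in replicate 6, lay below the highest WT ratio, 0.322 in replicate 2.

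**Figure D3:**
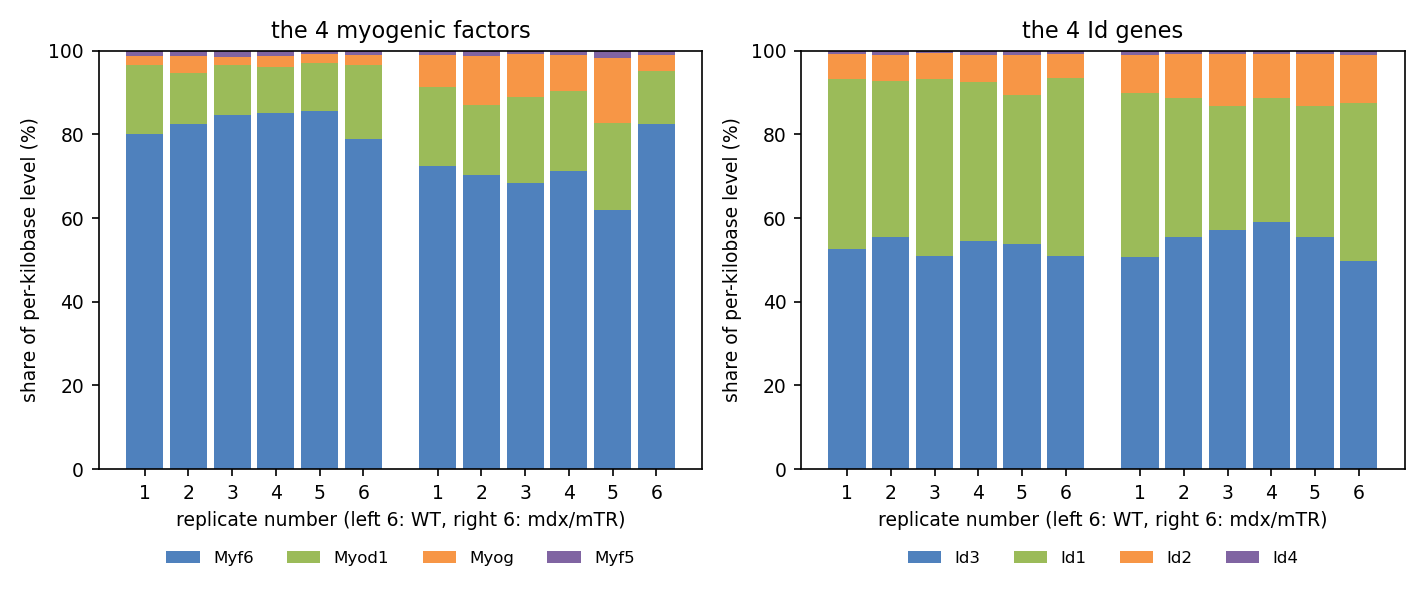
Share of each gene in the summed CPM per kilobase of the 4 myogenic factors (left) and of the 4 Id genes (right), as stacked bars per library (y axis, %, x axis, replicate number with WT on the left and mdx/mTR on the right of each panel). The Myf6 share averages 82.8% in WT and 71.2% in mdx/mTR, and mdx/mTR replicate 6 (82.6%) lies within the WT range.

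Mdfi (chromosome 17, 47815328 to 47834691), which binds myogenic factors, had the largest change of all 10 genes. It ranged from 0.335 to 0.876 CPM in WT, with a median of 0.593, which rests on 12 to 33 counts per library. In mdx/mTR it ranged from 10.3 to 20.1 CPM, with a median of 12.1 and 506 to 752 counts. The mean was 22.4 times that of WT, and the fold change was 4.48 ± 0.23, a value exceeded by 0.0646% of all tested genes. The groups were far apart, as no mdx/mTR library was below 10.3 CPM and no WT library was above 0.876 CPM.

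Mdfic (chromosome 6, 15720661 to 15802169), the paralog, was not called. It ranged from 14.1 to 19.7 CPM in WT (median 15.2) and from 16.4 to 25.1 CPM in mdx/mTR (median 18.1), with a fold change of 0.26 ± 0.11. Only mdx/mTR replicate 5 lay above the highest WT library, replicate 2. Mdfic was called in 6 of the 21 alternative fits: without WT replicate 2 (0.33), without mdx/mTR replicate 1 (0.30) or replicate 6 (0.29), without both WT replicate 2 and mdx/mTR replicate 5 (0.24), with library totals alone (0.43) and with upper quartile scaling (0.30). Without mdx/mTR replicate 5 it was 0.17.

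Per kilobase of transcript, the ratio of Mdfi to Mdfic was 0.0801 ± 0.0289 (SD, n = 6) for WT against 1.49 ± 0.437 (SD, n = 6) for mdx/mTR, with ranges of 0.0362 to 0.110 and 1.13 to 2.28 that did not overlap. Which paralog stood higher in mdx/mTR depended on the length used, since per kilobase of coding sequence Mdfi averaged 17.9 and Mdfic 19.3 CPM. Per kilobase of transcript, Mdfi and Mdfic together stood at 0.0620 ± 0.0133 of the summed myogenic factors in WT and 0.119 ± 0.0298 in mdx/mTR. Their ranges of 0.0491 to 0.0864 and 0.0900 to 0.173 lay close together without overlap. That gap depends on the length used, since Mdfic has 3635 bases of transcript and 987 of coding sequence.

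Id2 (chromosome 12, 25093799 to 25097140) had the largest change of the 4 Id genes. It ranged from 2.82 to 3.42 CPM in WT, with a median of 3.05, and from 5.16 to 8.63 CPM in mdx/mTR, with a median of 6.44. All 6 mdx/mTR libraries lay above all 6 WT libraries, which were close together, with a coefficient of variation of 8.43%. The fold change was 1.07 ± 0.12 and was called in all 21 alternative fits, with values from 0.95 to 1.24.

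Id3 (chromosome 4, 136143497 to 136145755) was the most abundant Id gene per transcript length. It ranged from 12.6 to 18.6 CPM in WT (median 16.6) and from 16.5 to 25.2 CPM in mdx/mTR (median 20.8), and 4 of 6 mdx/mTR libraries lay above the highest WT library. The fold change was 0.35 ± 0.11 and was called in 20 of 21 alternative fits, the exception being the fit without both WT replicate 2 and mdx/mTR replicate 5 (0.29).

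Id1 (chromosome 2, 152736251 to 152737410) was not called. It ranged from 7.55 to 12.6 CPM in WT (median 11.9) and from 7.74 to 13.2 CPM in mdx/mTR (median 12.4), a fold change of 0.06 ± 0.14. Each group had 1 low library, WT replicate 5 and mdx/mTR replicate 3. Without WT replicate 5 the fold change was -0.03.

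Id4 (chromosome 13, 48261228 to 48266026) was the scarcest per kilobase of transcript. In WT the mean of Mdfi was below that of Id4 in plain CPM and per kilobase of coding sequence. Id4 ranged from 0.444 to 1.06 CPM in WT (median 0.795) and from 0.656 to 1.08 CPM in mdx/mTR (median 1.02). It was not called (0.28 ± 0.20). Its locus overlaps A330033J07Rik and Gm49291 on the other strand in GENCODE M21. The sources used here do not give whether reads were counted by strand, so its reads and those of these transcripts cannot be told apart. For the other 9 genes GENCODE M21 shows no overlapping gene. At most 0.417% of their 50-base stretches occur in another gene, the highest being Id2, and for Id4 it was 2.08%.

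As shares of the summed per-kilobase level of the Id genes, Id2 went from 6.65% ± 1.39 to 11.1% ± 1.25 and Id1 from 39.4% ± 2.84 to 33.4% ± 4.07 (SD, n = 6 each). Id3 held 53.1% ± 1.84 in WT and 54.7% ± 3.64 in mdx/mTR. The groups overlapped for every Id share. The sum of the Id genes stood at 0.316 ± 0.0527 of the sum of the myogenic factors in WT and at 0.270 ± 0.0297 in mdx/mTR, with overlapping ranges.

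Id1 and Id3 are known to be made in endothelial cells as well as in muscle, and several of these genes are made by other cells of the tissue. Of 6 endothelial markers, 1 was higher and 3 were lower, with sums of 454 to 611 CPM in WT libraries and 377 to 508 CPM in mdx/mTR libraries. All 6 macrophage markers were higher, with sums of 59.1 to 105.1 CPM in WT libraries and 185 to 551 CPM in mdx/mTR libraries. Of 6 markers of fibro-adipogenic cells 5 were higher, with sums of 577 to 912 and 1185 to 2059 CPM, and no marker of these 3 lists was at 0. The part of these cells in the Id and Mdfi levels was not tested.

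**Figure D4:**
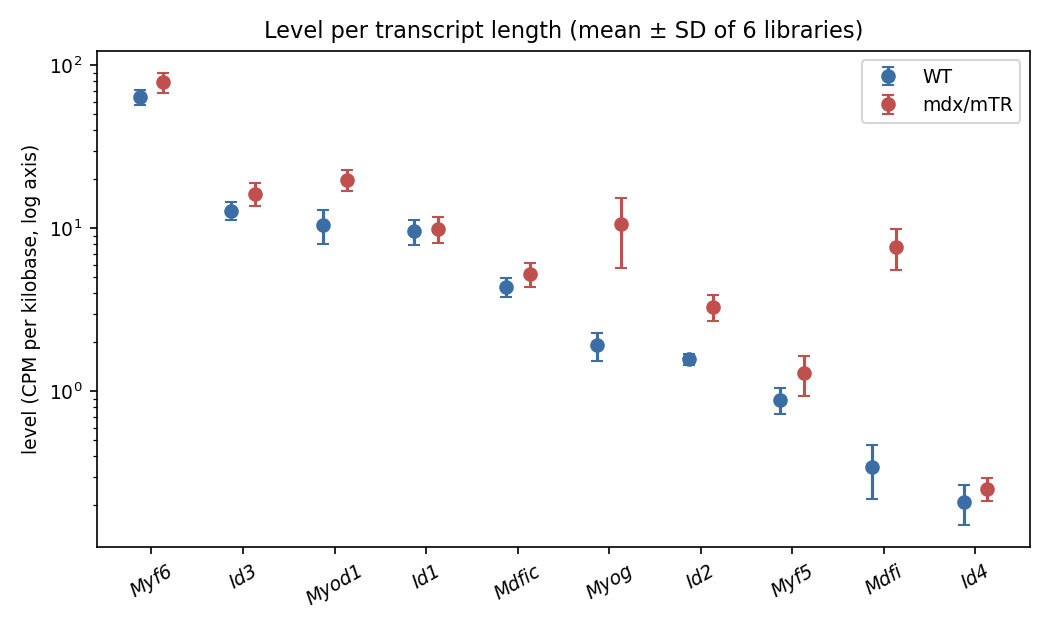
Level of each gene in CPM per kilobase of its longest coding transcript (y axis, log scale), as mean ± SD of 6 libraries, WT in blue and mdx/mTR in red, ordered by the WT mean. Myf6 is highest and Id4 lowest in both groups, and Mdfi moves from the ninth place in WT (0.345) to 7.72 in mdx/mTR.

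The order of the levels within each group did not use the comparison between the groups. In WT it ran Myf6 (63.95 ± 6.94 CPM per kilobase, SD, n = 6), Id3 (12.8 ± 1.63), Myod1 (10.5 ± 2.50), Id1 (9.57 ± 1.67), Mdfic (4.37 ± 0.589), Myog (1.92 ± 0.375), Id2 (1.57 ± 0.133), Myf5 (0.889 ± 0.160), Mdfi (0.345 ± 0.126) and Id4 (0.210 ± 0.0570). In mdx/mTR it ran Myf6 (78.7 ± 10.7), Myod1 (19.9 ± 2.99), Id3 (16.3 ± 2.60), Myog (10.6 ± 4.87), Id1 (9.97 ± 1.80), Mdfi (7.72 ± 2.14), Mdfic (5.25 ± 0.865), Id2 (3.31 ± 0.618), Myf5 (1.29 ± 0.354) and Id4 (0.253 ± 0.0411). Myod1, Myog and Mdfi stood higher in the second order than in the first. Setting the orders side by side restates the differences between the groups given above and is no separate evidence. In mdx/mTR, Myod1 was above Id3 in 5 of 6 libraries and Myog above Id1 in 3 of 6, so these places are uncertain.

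Neighbours in each order were compared within libraries with a two-sided exact sign-flip permutation test, 18 pairs in all, for which the smallest p is 0.03125. The same gene was higher in all 6 libraries for 11 pairs (exact permutation p 0.03125), and after adjustment over the 18 pairs 0 passed, since these 11 reached an adjusted p of 0.0511. The other pairs in WT, without the same gene higher throughout, were Id3 and Myod1, Myod1 and Id1, Myog and Id2, and Mdfi and Id4. In mdx/mTR they were Myod1 and Id3, Myog and Id1, and Id1 and Mdfi. With coding length in place of transcript length, 12 of 18 pairs passed, each with the same gene higher in all 6 libraries and an adjusted exact permutation p of 0.0469. All 12 sit at the smallest p, as did the 11 pairs above, so the number that passed turned on 1 more pair at that p. By coding length Id2 stood above Myog in WT in all 6 libraries (adjusted exact permutation p 0.0469), the opposite of their order by transcript length. By mean level Id1 then stood above Myod1 in WT, but in only 3 of 6 libraries, and Id4 above Mdfi, in 5 of 6. In mdx/mTR Mdfic stood above Mdfi in 4 of 6 libraries, and Id3 above Myod1 in all 6. Of these orders only Id3 above Myod1 passed the adjustment.

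Whether the genes vary together from library to library was examined within each group, apart from the difference between the groups, in 6 relations per group. In mdx/mTR, Myog and Myod1 on the log2(CPM + 0.5) scale had a Pearson r of 0.925 (n = 6, two-sided exact permutation p 0.00556, adjusted p 0.0667 over 12 relations) while Spearman's rho was 0.829 (exact permutation p 0.0583, adjusted p 0.350). Replicate 5 was highest and replicate 6 lowest for both genes, and without these 2 libraries r was 0.611. With library totals alone r was 0.969 (exact permutation p 0.00139, the smallest possible, adjusted p 0.0167), rho was 1 (adjusted exact permutation p 0.0333), and r without those 2 libraries was 0.995. The relation therefore passed the adjustment under that scaling and not under TMM. In WT the same pair had an r of -0.500 (exact permutation p 0.310, adjusted p 0.564) and a rho of -0.429 (exact permutation p 0.419), and without WT replicates 2 and 4 r was 0.881, so its sign rested on those libraries. The difference between the 2 groups in this relation was not tested.

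No other relation had a Pearson or Spearman p below 0.05. Myog with Mdfi had an r of 0.194 in mdx/mTR (exact permutation p 0.690), a rho of 0.257 and an r of -0.169 without the 2 libraries farthest from the median. Myog with Myf6 had an r of -0.515 in mdx/mTR (exact permutation p 0.300) and -0.691 in WT (exact permutation p 0.129), with a rho of -0.543 and -0.600, and without the 2 farthest libraries 0.589 and -0.141. Id1 with Id3 had an r of 0.866 in WT (exact permutation p 0.0819, rho 0.371), which rested on WT replicates 2 and 5, and was -0.189 without them. Values of a library share its depth and scaling.

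The genes most like Myog, Mdfi, Myf6 and Id1 were listed from 12206 genes with a mean of at least 1 CPM, by Pearson r over the 12 libraries after the mean of each group was subtracted. Rassf2 (0.973), Lrrc17 (0.944) and Ddah2 (0.939) followed Myog most closely, with r within mdx/mTR of 0.983, 0.958 and 0.990 and within WT of 0.885, 0.810 and 0.557. The mean of Rassf2 was 5.92 CPM for WT against 14.0 CPM for mdx/mTR. For Mdfi the closest were Zfp772 (0.841), Slc25a22 (0.840) and Vps25 (0.827), for Myf6 Ogfod3 (0.875), Sbno1 (0.867) and Gemin7 (0.847), and for Id1 Avpr1a (0.940), Actr5 (0.858) and Zc3h10 (0.857). These are the highest of many values over few libraries and are given as descriptions without p. With group means subtracted, likeness does not show that a gene moved between the groups as the member did. Zfp772, Slc25a22 and Vps25 had fold changes of -0.16, -1.02 and -0.11, against 4.48 for Mdfi.

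**Figure D5:**
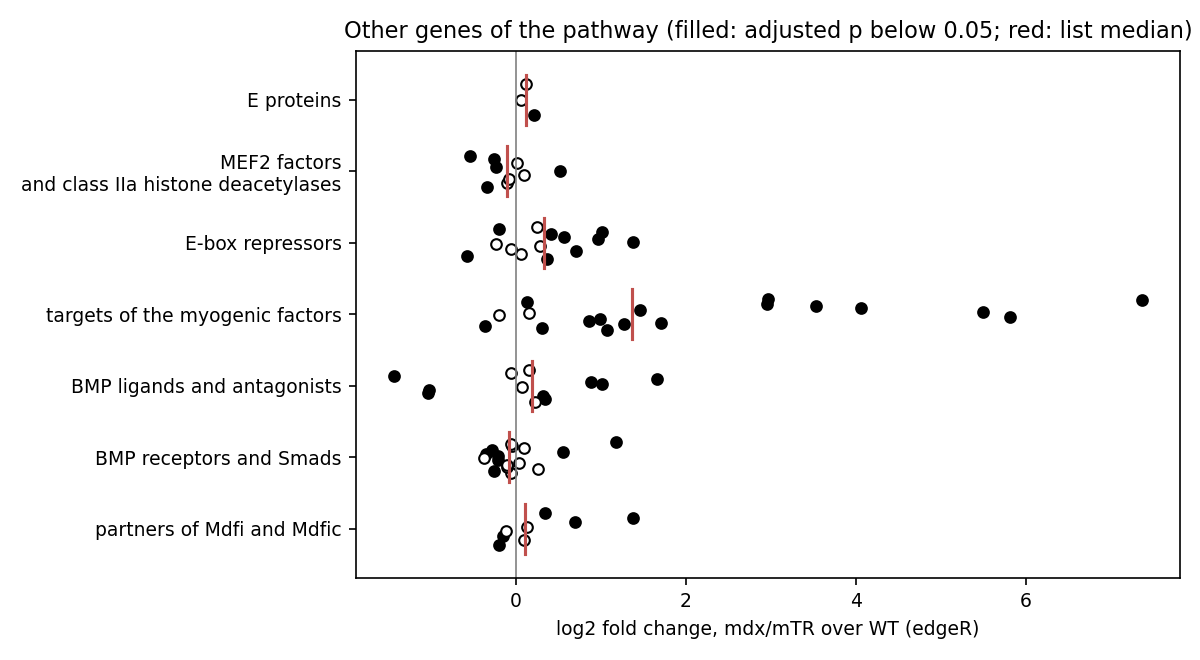
Log2 fold change, mdx/mTR relative to WT (x axis, edgeR) for each tested gene of 7 lists from the same pathway (y axis). Filled points have an adjusted p below 0.05, and the red line is the median of a list. The targets of the myogenic factors have the highest median (1.36), and the MEF2 list has the lowest (-0.10).

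Other genes of the pathway were read from 7 lists, chosen by known roles but with earlier results of these data known. The genes named from each list are mainly the called ones with the largest changes. Their counts and adjusted p are therefore descriptions and no independent evidence. In edgeR 23.4% of all genes were called lower, beside the 25.0% called higher, and the median of all genes was 0.01. Scaling by library totals alone moved that median by 0.16, and 78.2% of all calls were then higher, in place of 51.6%, so each list is given under both scalings where its counts moved. Among the E proteins, the dimer partners of both the myogenic factors and the Id proteins, 1 of 3 was called. Tcf12 rose from 35.9 ± 0.925 to 41.5 ± 4.43 CPM (SD, n = 6 each), a fold change of 0.21 ± 0.06 (edgeR adjusted p 0.0135). Tcf3 (0.06) and Tcf4 (0.12) were not called. With library totals alone 2 of 3 were higher.

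Among 9 tested MEF2 factors, class IIa histone deacetylases and cofactors, 1 was higher and 4 were lower. MEF2 proteins act with the myogenic factors, and class IIa deacetylases repress MEF2. The deacetylase gene Hdac9 rose from 6.29 to 9.01 CPM (0.52 ± 0.10, edgeR adjusted p 0.0012). Smarcd3, which codes for the chromatin remodelling subunit BAF60C that works with Myod1, fell from 202 to 139 CPM (-0.54 ± 0.08, edgeR adjusted p 1.7e-04). The arginine methyltransferase gene Carm1 (-0.34), Mef2d (-0.26) and Mef2a (-0.23) were lower too, while Mef2c (0.01) was not called. Mef2b was not tested. With library totals alone 3 were higher and 2 lower, and the median of the list turned from -0.10 to 0.05.

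Among 14 tested genes grouped here as repressors at E-boxes or of myogenic factors, 7 were higher and 2 lower, with a median of 0.32. Whether each gene represses in this tissue was not tested. Msc, the basic helix-loop-helix repressor called MyoR, rose from 1.43 ± 0.370 to 3.71 ± 1.02 CPM (1.38 ± 0.20, edgeR adjusted p 1.2e-04), and the lowest mdx/mTR library (2.67 CPM) was above the highest WT library (2.07 CPM). Twist2 (1.01) and Snai1 (0.96) also rose. Bhlhe41 (-0.57) and Zeb1 (-0.20) fell. Scaled by library totals alone, 8 were higher and 1 lower. Several of these genes are made by connective tissue cells, whose markers were higher as given above, and their part was not tested.

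Of 18 genes described as targets of the myogenic factors, 15 were higher and 1 was lower, with a median of 1.36. The counts are no independent evidence, as earlier results on many of these genes were known. The muscle fusion genes Tmem8c, the symbol here for myomaker, and Gm7325, for myomixer, had fold changes of 7.37 ± 0.64 and 5.49 ± 0.54, from 13 and 10 counts in all 6 WT libraries together, so that the size of these folds depends on how the fit treats near-zero counts. In mdx/mTR they ranged from 4.72 to 24.97 CPM and from 1.05 to 3.62 CPM, above WT maxima of 0.167 and 0.112 CPM. The fetal acetylcholine receptor subunit gene Chrng had 5.81 ± 0.48, from 15 WT counts. The receptor subunit genes that adult muscle also makes had fold changes of 1.71 for Chrna1, 0.99 for Chrnd and 0.86 for Chrnb1. Ckm (-0.20) and Des (0.15), genes of mature fibres, were not called, and Cdh15, the adhesion gene M-cadherin, was lower (-0.37). Scaled by library totals alone, 16 were higher and 0 lower.

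Of 12 tested BMP ligands and antagonists, 5 were higher and 3 lower. Bmp6 fell from 18.6 ± 3.18 to 9.09 ± 1.68 CPM (-1.04 ± 0.13, edgeR adjusted p 3.9e-05), and Bmp7 (-1.03) was lower. The ligand gene Gdf6 (1.66, below 0.52 CPM in every library), the antagonist gene Fst (1.01) and Fstl1 (0.88) were higher, as were Bmp4 (0.34) and Bmp5 (0.31). These counts were 7 and 3 with library totals alone.

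Of 16 BMP receptor and Smad genes, 2 were higher and 5 lower. The signal transducers Smad9 (1.18) and Smad1 (0.55 ± 0.08, edgeR adjusted p 9.1e-05) rose, and the receptor genes Eng (-0.36) and Acvr2a (-0.25) and the common partner Smad4 (-0.28) were lower. Smad6 (-0.04), Smad7 (-0.06), Bambi (0.04) and Atoh8 (-0.10) of this list were not called. The part of BMP signals in the Id levels was not tested. The signs of Smad6, Smad7 and Atoh8 were positive with library totals alone. With library totals alone 4 were higher (Smad1, Smad5, Smad9 and Acvr2b) and 0 lower. The median of the list turned from -0.08 to 0.08, so the lower calls hold under TMM and not under that scaling. The 5 lower genes (Eng, Smad4, Acvr2a, Bmpr1a and Bmpr2) were each called in 20 of 21 alternative fits and had a negative sign in all.

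Mdfi and Mdfic are also known to bind Piezo channels, axin, beta-catenin partners of the TCF family and cyclin T1. Of 8 tested genes of this kind, 3 were higher and 2 lower. Tcf7 rose from 0.511 ± 0.116 to 1.33 ± 0.377 CPM (1.38 ± 0.22, edgeR adjusted p 2.3e-04) and Tcf7l2 from 5.91 to 7.50 CPM (0.34). The mechanically gated channel gene Piezo2 was higher (0.70, edgeR adjusted p 0.0339) and was called in 14 of 21 alternative fits, while Piezo1 (0.13) was not called. Axin1 (-0.20) was lower and was called in 13 of 21 fits, and Ctnnb1 (-0.15) was lower but stood at 0.01 with library totals alone, under which 4 of the list were higher and 0 lower.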

How the data were processed

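The authors deposited whole-number counts per gene symbol for 12 libraries. The submitters' processing notes name FastQC, STAR, DESeq2 and the build mm10 (GRCm38), without versions. The counter, annotation and strand setting are not given in the sources used here. The authors' deposited table of their comparison holds p-values, a test score, a log2 fold change and a mean signal, per the file headers. 0 per-sample columns were unmatched.

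Counts were tested with edgeR 4.0.16 in R 4.3.3 across all genes (filterByExpr, TMM, glmQLFit and glmQLFTest, group only, Benjamini-Hochberg threshold 0.05). The standard error is the fold change divided by the square root of F. Alternatives used DESeq2 1.42.0 and limma 3.58.1 (voom), other scalings, filters, a replicate block, each library left out, and 1 added after seeing the data. Permutation tests used Python 3.11.15 with numpy 2.4.6. The procedure was tested on simulated counts. Lengths, coordinates and shared stretches came from GENCODE M21, promoters from RefSeq GRCm38.p6. A count of 3, the limit that a count of 0 allows, is 0.0460 to 0.0837 CPM and covers counting error only. Replicate pairs differed by more than sampling noise (chi-square per degree of freedom at least 8.87).

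Genes named are the 10 members, up to 3 called genes in each direction of each list, and the 3 genes most like each of 4 members. Others were chosen after their values were seen. 1 gene that this rule names is not reported here. Members and lists were chosen with earlier results of these data known.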

Additional observations from a re-analysis of the deposited data

Results flagged for a closer look

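Single libraries that stood apart were sought with Dixon's ratio, the gap from an extreme library to its neighbour over the whole spread of 6 libraries, at the 95% critical value. Among 20 groups of values, 3 were found, where chance gives about 1. Mdfi stood at 20.1 CPM in mdx/mTR replicate 3 where the remaining mdx/mTR libraries had 10.3 to 13.8 CPM (ratio 0.651). Mdfic stood at 25.1 CPM in mdx/mTR replicate 5 against 16.4 to 19.4 CPM (ratio 0.653). Id4 stood at 0.656 CPM in mdx/mTR replicate 3 against 0.998 to 1.08 CPM (ratio 0.805), from 24 counts. Replicate 3 is the library with the smallest total, 35136327 counts.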

How the results depend on the processing

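Of the 10 genes, 6 to 8 were called in every alternative at the same threshold, and 4 at an adjusted p of 0.01. All genes called ran from 6076 to 7241 (4621 at 0.01), and 51 list genes from 47 to 54 (40 at 0.01). Id1 alone changed sign, with -0.0285 to 0.152 when 1 library was left out. With coding length 12 neighbour pairs passed in place of 0, since 12 rather than 11 pairs reached the smallest p, and with library totals alone 1 within-group relation in place of 0. With library totals alone 78.2% of calls over all genes were higher in place of 51.6%. List counts moved most for the E proteins (2 with library totals, upper quartile scaling or without mdx/mTR replicate 3, and 0 at 0.01, in place of 1), the E-box repressors (5 at 0.01 in place of 9), BMP receptors and Smads (4 with library totals, all higher, in place of 7) and the partners of Mdfi and Mdfic (3 at 0.01 or without WT replicate 1, WT replicate 4 or mdx/mTR replicate 6, in place of 5). Deviations of same-numbered libraries correlated at -0.155 to 0.354, above 0.1 for only 2 of 6 numbers, and were not taken as pairs. With the replicate block 6 of the 10 genes were called, Myf5 being lost, and 6420 genes in all. Depth limits Mdfi in WT, with 12 to 33 counts per WT library, and Id4, with 16 to 40.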
